A study of Mus musculus with 4 samples.

Results

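The nuclear genes for subunits of the mitochondrial respiratory chain and the ATP synthase were described in blood monocytes with and without the transcription factor RBP-J. Members were taken by symbol: Nduf genes of the a, b, c, s and v series (complex I), Sdha to Sdhd (complex II), Uqcr genes (complex III), Cox4 to Cox8 genes (complex IV) and Atp5 genes (complex V). The rule took 84 of 23995 gene symbols. Of these, 79 reached an FPKM (read pairs scaled to the length of the transcript and the depth of the library) of at least 1 in a library, as did 10240 symbols in all. The 79 were 36 genes of complex I, 4 of complex II, 8 of complex III, 14 of complex IV and 17 of complex V. The symbol rule itself used no measured value, while the 79 were kept by their FPKM.

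RNA of Ly6Chi and Ly6Clo monocytes, the classical and the patrolling subset of mouse blood, was sequenced from RBP-J-deficient mice (Rbpj fl/fl Lyz2 cre/cre) and control mice (Rbpj +/+ Lyz2 cre/cre). All mice of both genotypes carried Cre recombinase at Lyz2, a gene active across myeloid cells, so Cre was not limited to monocytes, and the control libraries, titled WT, also carried Cre. Each of the 4 groups held 1 library. Mice were matched for age and sex and 7 to 12 weeks old across the experiments, and the number of mice behind a library was not given. No replicate spread could be measured, and no test was made.

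The respiratory chain passes electrons from NADH (complex I) and succinate (complex II) through ubiquinone to complex III, then through cytochrome c to oxygen at complex IV. Complexes I, III and IV pump protons across the inner mitochondrial membrane, and complex V, the ATP synthase, uses the proton gradient to make ATP. Most subunits are encoded in the nucleus, while a small set of core subunits is encoded by mitochondrial DNA and was not analysed here. Monocytes use both glycolysis and oxidative phosphorylation, and RBP-J is the DNA-binding factor of Notch signalling that represses or activates its targets.

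Short stretches of promoter are shown for Cox7c, the member with the largest genotype ratio in Ly6Clo monocytes, and for genes of complexes I, III and V. Among them is Atp5k, the single promoter that held both motifs searched. The members shown all had a log2 genotype ratio above 0 in Ly6Clo monocytes. RBP-J cores not shown include those of Atp5d and Atp5b, whose ratios there were -1.46 and -0.34. RefSeq promoters of the GRCm38.p6 assembly, from 250 bases before to 50 after the gene start, were available for 67 members. Capitals mark the motif, each sequence is printed 5′ to 3′ on the strand of the gene, and each stretch is 25 bases long. The RBP-J core TGGGAA reads TTCCCA when it lies on the other strand. The core motif of NRF1, a transcription factor known for its sites in genes of respiratory subunits, was searched as GCGCATGCG, which reads CGCATGCGC on the other strand and so often matches both strands at overlapping positions.
Cox7c, RBP-J core, chr13:86046894-86046918, minus strand: agactacatTTCCCAcaatccatcg
Ndufc1, RBP-J core, chr3:51409087-51409111, minus strand: ccgggttctTGGGAAccttgtactg
Uqcr10, RBP-J core, chr11:4704380-4704404, minus strand: aaactacaaTTCCCAtaaagcaggg
Atp5k, RBP-J core, chr5:108434485-108434509, minus strand: ccagccccgTGGGAAcgctcggcta
Atp5k, NRF1 core, chr5:108434433-108434457, minus strand: tcactgcgGCGCATGCGcctttctg
Ndufa8, NRF1 core, chr2:36049331-36049355, minus strand: gctggagaCGCATGCGCagatggta
Uqcrc1, NRF1 core, chr9:108936670-108936694, plus strand: tccgctctGCGCATGCGcagcgcgg

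The RBP-J core was found in 14 of 67 member promoters (20.9%), against 28.3% of 27025 promoters of all genes and 26.0% of 7754 promoters of expressed genes. The NRF1 core was found in 8 of 67 member promoters (11.9%), against 1.95% of all promoters and 4.60% of promoters of expressed genes. Members with the RBP-J core had a median log2 genotype ratio in Ly6Clo monocytes of 0.95, and those without it 0.82. The 8 members with the NRF1 core had a median of 0.64, and the other 59 a median of 0.84. A match describes the letters of these windows and is not a measured binding site.

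Rbpj was lower in both deficient libraries, and the summed subset markers separated the subsets in each genotype. In Ly6Clo monocytes Rbpj was at 8.30 FPKM in control mice and 2.43 in deficient mice, and in Ly6Chi monocytes at 14.4 and 2.85. The 9 Ly6Chi markers summed to 5229 and 4258 FPKM in the control and deficient Ly6Chi libraries, and to 120 and 669 in the Ly6Clo libraries. The 10 Ly6Clo markers summed to 3176 and 2487 in the Ly6Clo libraries, and to 588 and 1031 in the Ly6Chi libraries. Single Ly6Clo markers went against these sums. Nr4a1 was at 618 and 65.6 FPKM in control and deficient Ly6Clo monocytes and 213.9 and 182.5 in Ly6Chi monocytes, and Ace at 108.7 and 17.7 and at 26.4 and 24.7, so that in deficient mice both were lower in the Ly6Clo library. By flow cytometry and qPCR the paper found Nr4a1 to be similar in Ly6Clo monocytes of both genotypes, unlike in these single libraries. Itgax was at 33.7 and 3.10 in the Ly6Clo libraries. The FPKM of all rows summed to between 711555 and 885648 per library, highest in RBP-J-deficient Ly6Clo monocytes. Read depth is unknown, so no interval can be given.

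All subunit genes together held 3.08% of the summed FPKM of the control Ly6Clo library and 4.64% of that of the RBP-J-deficient Ly6Clo library. In Ly6Chi monocytes they held 3.57% and 4.21%. The control Ly6Clo library thus had the lowest share and the deficient Ly6Clo library the highest. The sums include Actb, at 27260 and 22795 FPKM in control Ly6Clo and Ly6Chi monocytes. In both deficient libraries Actb was listed at 0, with a failed status. Values rescaled to the same sum rest on these sums too. No row of a member had failed. In a bulk library, fewer cells of a type and less RNA per cell cannot be told apart. Complex I made up the largest piece, at 1.26% and 2.07% in control and deficient Ly6Clo monocytes and 1.40% and 1.79% in Ly6Chi monocytes. Complex IV held 0.66% and 0.96% in Ly6Clo monocytes, complex V 0.61% and 0.87%, complex III 0.43% and 0.58%, and complex II 0.11% and 0.17%. Each of the 5 complexes took the same order between the libraries of a subset, with the higher share in the deficient library.

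**Figure D1:**
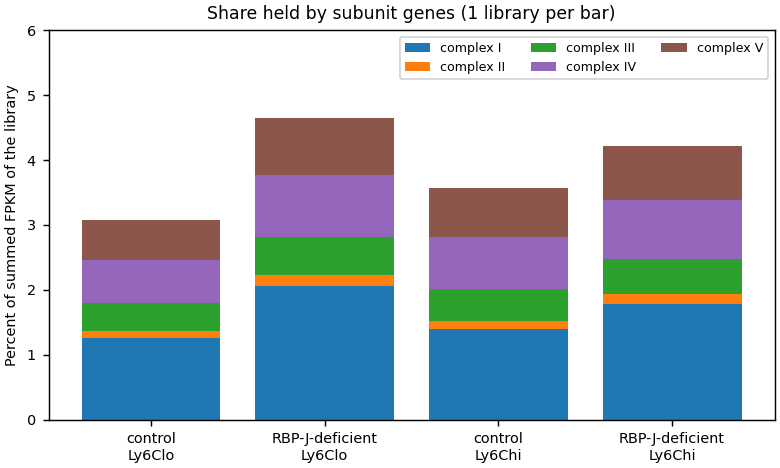
Share of the summed FPKM of each library (percent) held by subunit genes, stacked by complex, with 1 library per bar and no error bars because there were no replicates. The bars reach 3.08%, 4.64%, 3.57% and 4.21% from left to right, and complex I is the largest block in each.

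In Ly6Clo monocytes most subunit genes were higher in the RBP-J-deficient library. Differences between genotypes are given as log2 ratios, the deficient library divided by the control library after adding 1 to each FPKM. Of 79 members, 67 had a ratio above 0, the median was 0.78, and the middle of the distribution ran from 0.49 to 1.09 between the quartiles. All 10240 expressed genes had a median of 0.02. At least 2-fold higher were 27 members (34.2%), against 8.97% of all expressed genes, and at least 2-fold lower were 3 members, against 11.1%. No member passed the larger folds of the study's methods, 5.7 or 0.2, which 0.947% of expressed genes did in this comparison.

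In Ly6Chi monocytes the same sign was found at a smaller size. Again 67 of 79 members had a ratio above 0, with a median of 0.29 against 0.00 over all expressed genes. At least 2-fold higher was 1 member, Cox7a1, against 2.64% of expressed genes, and at least 2-fold lower was none, against 4.56%. No member passed the folds of the study's methods, which 0.312% of expressed genes did. Since each subset rests on 1 library per genotype, these counts describe 4 libraries and have no p-value.

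The sign was shared between subsets for most members. Of 79 members, 64 were higher in the deficient library in both subsets, 9 were lower in both and 6 had opposite signs. The Ly6Clo ratio was above the Ly6Chi ratio in 68 members. Across the 79 members the rank correlation of the ratios was 0.82, and over 6405 genes whose FPKM averaged 5 or more it was 0.61. These values are across genes, which are not independent replicates, and the subsets share no library but may share mice.

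**Figure D2:**
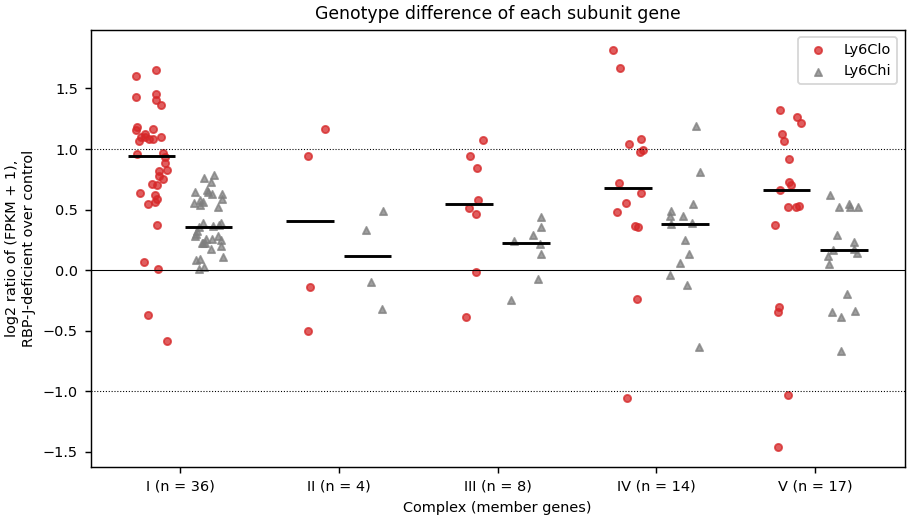
Log2 genotype ratio (deficient over control, FPKM + 1) for each of the 79 expressed subunit genes by complex, in Ly6Clo (circles) and Ly6Chi (triangles) monocytes. Black bars are medians and dotted lines mark a 2-fold difference; in complex I, 34 of 36 circles and all 36 triangles lie above 0, with medians of 0.95 and 0.36.

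Complex I, the NADH dehydrogenase, had the largest median in Ly6Clo monocytes among the 5 complexes. Its 36 members had a median log2 ratio of 0.95. Of them, 16 (44.4%) were at least 2-fold higher and none 2-fold lower, against 8.97% and 11.1% of all expressed genes. In Ly6Chi monocytes all 36 had a ratio above 0, with a median of 0.36 and none at 2-fold. The members differed by their place in the complex. The 7 nuclear core subunits, which carry the flavin and iron-sulfur centres or bind ubiquinone, had a median of 0.55 in Ly6Clo monocytes, with 5 of 7 above 0 and none at 2-fold. The 29 accessory members had a median of 1.08, with 29 of 29 above 0 and 16 at 2-fold. Accessory subunits surround the core and are needed for its assembly and stability. Ndufa4, now assigned to complex IV, is counted among the 29 by its symbol.

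Among accessory members, Ndufs5 had the largest ratio. Ndufs5 (chr4:123712710-123718202), a small subunit on the side of the intermembrane space, was at 51.8 FPKM in the control and 164.9 in the deficient Ly6Clo library. In Ly6Chi monocytes its FPKM was 99.6 and 172.8. The ratios were 1.65 and 0.79 on the log2 scale, and the control Ly6Clo library was the low value among the 4. Ndufa12 (chr10:94198720-94221443) had an FPKM of 221.1 and 672.9 in control and deficient Ly6Clo monocytes and 220.3 and 373.9 in Ly6Chi monocytes. Its levels in the control libraries were nearly the same, and the ratios were 1.6 and 0.76.

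The most abundant members of complex I were Ndufb7 and Ndufa1, both accessory subunits of the membrane arm. The FPKM of Ndufb7 was 809 and 1806 in control and deficient Ly6Clo monocytes and 727 and 1151 in Ly6Chi monocytes. That of Ndufa1 was 541 and 1433 in Ly6Clo monocytes and 576 and 902 in Ly6Chi monocytes. Both had the deficient Ly6Clo library highest, and their Ly6Clo ratios were 1.16 and 1.40. Ndufb5, another membrane arm subunit, had an FPKM of 47.5 and 104.7 in Ly6Clo monocytes and 79.8 and 93.1 in Ly6Chi monocytes. Ndufa11, which sits where the arms of the complex meet, had the reverse order between the control libraries, with 35.1 in Ly6Clo and 28.0 in Ly6Chi monocytes, and 69.0 and 42.5 in the deficient libraries. Ndufb4 was at 270.3 and 606.7 in Ly6Clo monocytes and 239.6 and 375.4 in Ly6Chi monocytes. In all 3 genes the deficient library was the higher in each subset.

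Core subunits did not follow a single direction in Ly6Clo monocytes. Ndufs1, the largest subunit with several iron-sulfur clusters, was at 33.9 and 26.0 in Ly6Clo monocytes and 38.0 and 38.4 in Ly6Chi monocytes. Ndufv1, which holds the flavin that takes electrons from NADH, was at 68.9 and 69.4 in Ly6Clo monocytes and 63.5 and 67.5 in Ly6Chi monocytes, nearly level in all libraries. Its Ly6Clo ratio of 0.01 is below 0 when all libraries are rescaled to the same sum.

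Another 4 core subunits were higher in the deficient Ly6Clo library. Ndufv2, the partner of Ndufv1, was at 90.5 and 148.7 (log2 ratio 0.71), and Ndufs3 at 105.3 and 187.8 (0.83). The iron-sulfur subunits Ndufs7 and Ndufs8 had ratios of 0.55 and 0.64. In Ly6Chi monocytes the ratios of these 4 genes lay between 0.03 and 0.37. The accessory genes ran from 0.07 to 1.65 in Ly6Clo monocytes.

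Complex II, succinate dehydrogenase, links the citric acid cycle to the chain and is encoded wholly in the nucleus. Its 4 genes split in both subsets. The iron-sulfur subunit Sdhb (chr4:140961203-140979193) was at 504 FPKM in the control and 1133 in the deficient Ly6Clo library, and 523 and 733 in Ly6Chi monocytes. Its log2 ratios were 1.17 and 0.49. The membrane anchor Sdhd was at 131.6 and 254.5 in Ly6Clo monocytes and 185.7 and 234.2 in Ly6Chi monocytes, with ratios of 0.95 and 0.33. Both genes had their highest level in the deficient Ly6Clo library. The flavin subunit Sdha (chr13:74322254-74350280) was at 82.6 and 58.1 in Ly6Clo monocytes and 82.1 and 76.8 in Ly6Chi monocytes, with ratios of -0.50 and -0.10. The other membrane anchor, Sdhc, was at 59.1 and 53.6 in Ly6Clo monocytes and 81.4 and 64.8 in Ly6Chi monocytes, with ratios of -0.14 and -0.32. The 4 proteins form a complex in which each subunit is present in equal number. The FPKM of Sdhb was far above that of the other 3 genes in every library, of control as of deficient mice.

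Complex III, the cytochrome bc1 complex, had 6 of 8 members with a ratio above 0 in each subset and medians of 0.55 and 0.23. At least 2-fold higher in Ly6Clo monocytes was 1 member (12.5%), Uqcrq, against 8.97% of all expressed genes. Uqcrq was at 557 and 1177 FPKM in Ly6Clo monocytes and 653 and 885 in Ly6Chi monocytes. Uqcr10, like Uqcrq a small supporting subunit, was at 610 and 1094 in Ly6Clo monocytes and 663 and 784 in Ly6Chi monocytes. Both small subunits were highest in the deficient Ly6Clo library. The remaining genes of complex III named here were chosen after their values were seen. The Rieske iron-sulfur protein Uqcrfs1 was at 144.5 and 143.4 in Ly6Clo monocytes and 165.7 and 157.2 in Ly6Chi monocytes. The core protein Uqcrc1 was at 546 and 817 in Ly6Clo monocytes and 552 and 706 in Ly6Chi monocytes. Its partner Uqcrc2 was at 89.2 and 68.2 in Ly6Clo monocytes and 82.0 and 69.1 in Ly6Chi monocytes, so the core proteins had log2 ratios of opposite sign in Ly6Clo monocytes, 0.58 and -0.38.

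Complex IV, cytochrome c oxidase, is represented by its nuclear subunits, which surround a core encoded by mitochondrial DNA. Of 14 expressed members, 12 had a ratio above 0 in Ly6Clo monocytes, with a median of 0.68. There 4 (28.6%) were at least 2-fold higher and 1 (7.14%) at least 2-fold lower, against 8.97% and 11.1% of all expressed genes. In Ly6Chi monocytes 11 of 14 were above 0, with a median of 0.38. Cox7c (chr13:86044816-86046904), a small membrane subunit, had the largest ratio of all members in Ly6Clo monocytes. Its FPKM was 455 and 1604 in control and deficient Ly6Clo monocytes, and 456 and 802 in Ly6Chi monocytes. The control libraries were at the same level, and the ratios were 1.82 and 0.81. The most abundant members were Cox6b1, at 883 and 1453 in Ly6Clo monocytes and 970 and 1154 in Ly6Chi monocytes, and Cox4i1, at 799 and 1113 and at 1144 and 1258. Cox4i1, the largest nuclear subunit, had ratios of only 0.48 and 0.14.

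**Figure D3:**
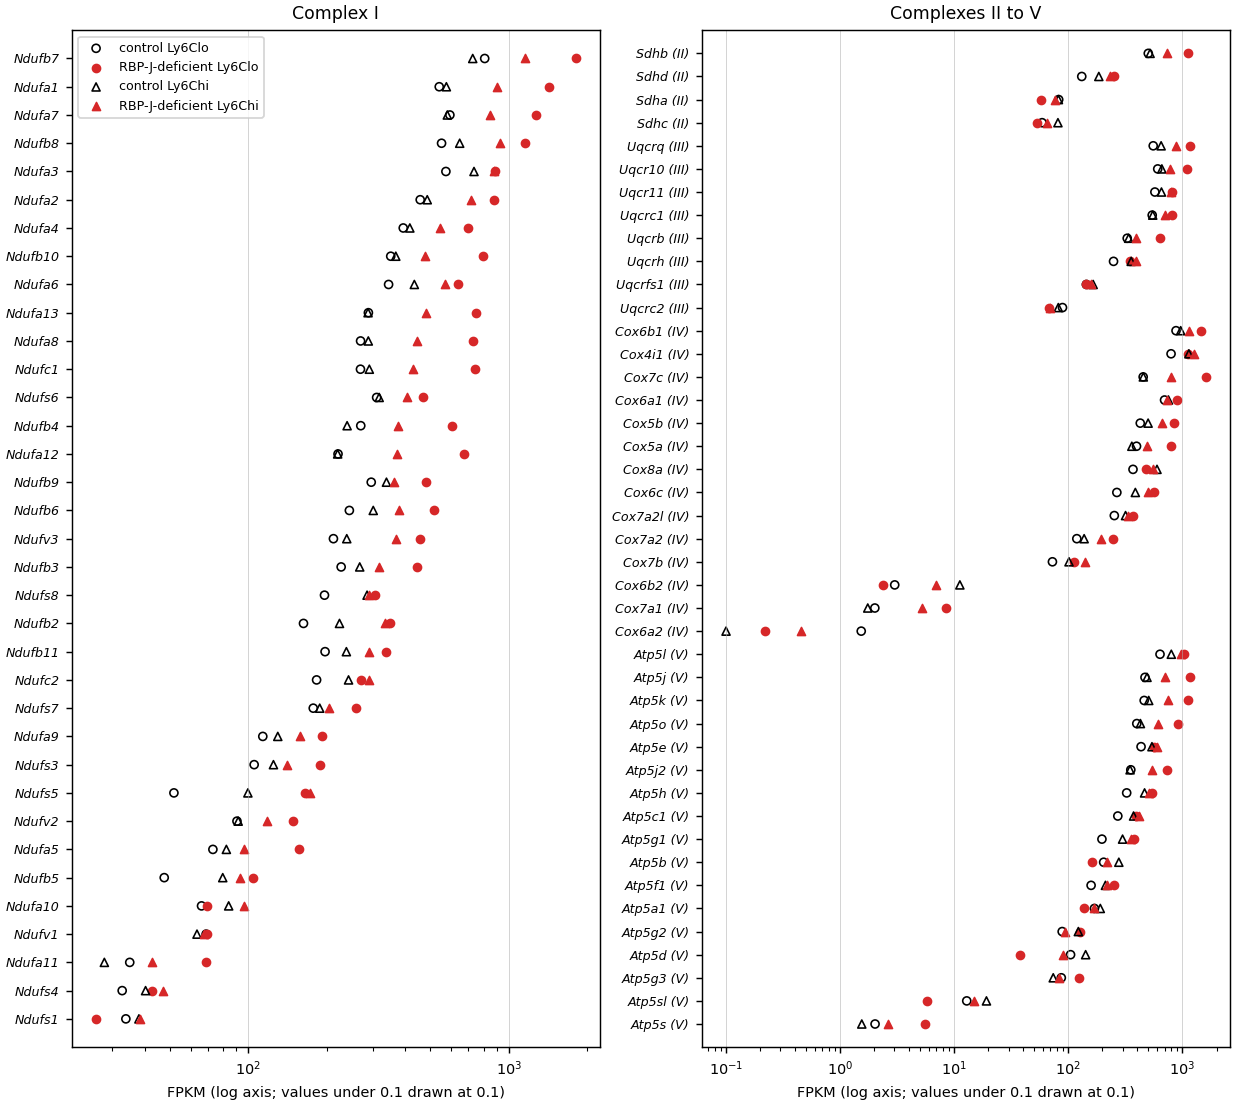
FPKM (log axis) of expressed subunit genes in the 4 libraries, complex I on the left and complexes II to V on the right, with circles for Ly6Clo, triangles for Ly6Chi, open symbols for control and red symbols for RBP-J-deficient libraries. The deficient Ly6Clo library is the highest of the 4 in 57 of 79 genes, of which 1 is not drawn, and the control Ly6Clo library the lowest in 55. These counts use FPKM that were not rescaled to the same sum in every library.

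Several subunits of complex IV and the c subunit of complex V exist in alternative forms encoded by separate genes. The forms known from heart, skeletal muscle, lung or testis were listed at 0 or were low in these monocytes. Cox4i2, Cox7b2, Cox8b and Cox8c were listed at 0 in all 4 libraries, as was Ndufa4l2, a paralogue of Ndufa4. Ndufa4, named for complex I and now assigned to complex IV, was at 394 and 695 in Ly6Clo monocytes and 417 and 546 in Ly6Chi monocytes. Cox6a2, the muscle form of Cox6a1, was at 1.53 in control Ly6Clo monocytes, 0.22 in deficient Ly6Clo monocytes, 0 in control Ly6Chi monocytes and 0.46 in deficient Ly6Chi monocytes. It was the complex IV member counted as 2-fold lower in Ly6Clo monocytes, and its values lie near the floor. Its partner Cox6a1 was at 700.4 and 898 in Ly6Clo monocytes and 758 and 737 in Ly6Chi monocytes.

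Cox6b2, the testis form of Cox6b1, was higher in Ly6Chi than in Ly6Clo monocytes of each genotype. Its FPKM was 3.01 and 2.40 in control and deficient Ly6Clo monocytes and 11.2 and 6.90 in Ly6Chi monocytes. It made up 0.34% and 0.16% of the summed FPKM of the pair in Ly6Clo monocytes and 1.14% and 0.59% in Ly6Chi monocytes. Cox7a1 (chr7:30184144-30186078), the muscle form of Cox7a, was at 2.02 and 8.57 in Ly6Clo monocytes and 1.75 and 5.28 in Ly6Chi monocytes. Its ratios were 1.67 and 1.19, the only member past 2-fold in both subsets, at a low level. With a pseudocount of 5 its Ly6Clo ratio was 0.95. The common form Cox7a2 was at 119.1 and 245.9 in Ly6Clo monocytes and 138.1 and 194.5 in Ly6Chi monocytes, so Cox7a1 made up 1.67% and 3.37% of the pair in Ly6Clo monocytes and 1.25% and 2.64% in Ly6Chi monocytes. Cox7a2l, related to Cox7a2 and found in assemblies of complexes III and IV, was at 254.0 and 373.9 in Ly6Clo monocytes and 318.6 and 332.0 in Ly6Chi monocytes. Cox7b was at 72.8 and 113.6 and at 101.7 and 139.1. Cox8a, the common form of the smallest subunit, was at 370.4 and 476.9 in Ly6Clo monocytes and 601 and 553 in Ly6Chi monocytes, higher in the deficient library of the first subset and lower in that of the second.

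The identical mature c subunit of the ATP synthase rotor is encoded by Atp5g1, Atp5g2 and Atp5g3. Their FPKM summed to 373.5 and 629 in control and deficient Ly6Clo monocytes and to 497 and 531 in Ly6Chi monocytes. Atp5g1 (chr11:96068852-96075670) was the major form everywhere, with 53.0% and 59.7% of the sum in Ly6Clo monocytes and 60.4% and 66.6% in Ly6Chi monocytes. Its own FPKM was 197.8 and 375.5 in Ly6Clo monocytes and 300 and 353.3 in Ly6Chi monocytes. Atp5g2 was at 88.6 and 127.8 in Ly6Clo monocytes and 122.8 and 93.6 in Ly6Chi monocytes, ratios of 0.52 and -0.39 with opposite signs. Atp5g3 was at 87.1 and 125.3 in Ly6Clo monocytes and 74.0 and 83.6 in Ly6Chi monocytes. These genes share coding sequence, and how reads were split between them was not tested.

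Complex V had 13 of 17 members with a ratio above 0 in Ly6Clo monocytes and 12 of 17 in Ly6Chi monocytes, with medians of 0.66 and 0.17. In Ly6Clo monocytes 5 members (29.4%) were at least 2-fold higher, against 8.97% of all expressed genes. At least 2-fold lower were 2 members (11.8%), near the 11.1% of all expressed genes. The 5 genes of F1, the catalytic head, had a median of -0.31 in Ly6Clo and -0.19 in Ly6Chi monocytes, with 2 of 5 above 0 in each. The other 12 members, of the rotor ring, the stalk and the membrane part together with Atp5s and Atp5sl, which are described below, had medians of 0.82 and 0.26, with 11 of 12 and 10 of 12 above 0, Atp5sl being the exception in Ly6Clo monocytes. The abundant Atp5l, a membrane subunit, was at 639 and 1039 in Ly6Clo monocytes and 803 and 981 in Ly6Chi monocytes. Atp5j, a subunit of the peripheral stalk, was at 472 and 1181 in Ly6Clo monocytes and 491 and 706 in Ly6Chi monocytes, with a Ly6Clo ratio of 1.32, the largest of complex V.

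Atp5d (chr10:80138632-80145818), the delta subunit of the central stalk in F1, had the lowest ratio of all members in both subsets. Its FPKM was 105.0 and 37.6 in control and deficient Ly6Clo monocytes and 142.3 and 89.3 in Ly6Chi monocytes. The ratios were -1.46 and -0.67, and the deficient Ly6Clo library was the lowest of the 4, the reverse of the usual order. After subtraction of a trend on transcript GC content the Ly6Clo ratio was -0.85, under 2-fold. The transcript of Atp5d had the highest GC content of the 84 members, 61.1% against a median of 51.9% over the expressed members. The catalytic alpha and beta subunits Atp5a1 and Atp5b, named here after their values were seen, were also lower in the deficient library of both subsets. Atp5a1 was at 170.0 and 137.2 in Ly6Clo monocytes and 191.3 and 167.2 in Ly6Chi monocytes, and Atp5b was at 204.8 and 161.2 and at 278.2 and 219.8.

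The symbol rule also took a pair of genes that encode no stable subunit of the ATP synthase. Atp5s, named for coupling factor B, was at 2.03 and 5.60 in Ly6Clo monocytes and 1.55 and 2.65 in Ly6Chi monocytes. Atp5sl, a related gene known for a part in complex I assembly, was at 12.9 and 5.80 in Ly6Clo monocytes and 19.2 and 15.0 in Ly6Chi monocytes. Their Ly6Clo ratios were 1.12 and -1.03, of opposite sign, and both rest on low values.

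The subsets were also compared within each genotype. These comparisons use the same 4 libraries as the genotype comparisons and so are not independent of them. In control mice, 63 of 79 members were higher in Ly6Chi than in Ly6Clo monocytes, with a median log2 ratio of 0.19 against 0.00 over all expressed genes. At least 2-fold higher was 1 member, Cox6b2, against 7.75% of expressed genes, and at least 2-fold lower was 1, Cox6a2, against 5.21%. After Cox6b2 the largest ratios among members at an FPKM of 5 or more were 0.93 for Ndufs5 and 0.73 for Ndufb5, and the lowest were -0.31 for Ndufa11, -0.23 for Atp5g3 and -0.17 for Ndufb4.

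In RBP-J-deficient mice, 57 of 79 members were lower in Ly6Chi than in Ly6Clo monocytes, with a median of -0.28 against -0.02 over all expressed genes. None was at least 2-fold lower, against 8.41% of expressed genes, and 3 were at least 2-fold higher, Atp5sl, Atp5d and Cox6b2, against 10.6%. The ratio of Cox7c came nearest to the fold on the lower side, at -0.999, followed by Atp5s at -0.85 and Ndufa12 at -0.85. For 43 of 79 members the libraries stood in the order control Ly6Clo, control Ly6Chi, deficient Ly6Chi, deficient Ly6Clo from lowest to highest. Values were also rescaled to the same sum in every library (the TPM scale). The sign of the subset difference then held for the medians of complexes I and IV, at -0.11 and -0.02 in deficient mice. In complex IV, 7 of 14 members were then higher in deficient Ly6Chi than in deficient Ly6Clo monocytes. In deficient mice the medians of complexes III and V became positive, 0.09 and 0.13, and 38 of 79 members were higher in Ly6Chi monocytes.

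The ratios moved with the length of the transcript. Members had a median transcript length of 742 nt, against 2474 nt over all expressed genes. In Ly6Clo monocytes, the median ratio was 0.84 in 27 members under 600 nt, 1.04 in 25 members from 600 to under 1000 nt, 0.58 in 21 members from 1000 to under 2000 nt and -0.12 in 6 members of 2000 nt and over. Other genes whose FPKM averaged 5 or more showed medians of 0.55, 0.52, 0.18 and -0.04 in the same classes. Members were above the other genes in the first 3 classes and not in the longest. In Ly6Chi monocytes the medians were 0.29, 0.39, 0.22 and 0.11 in members and 0.22, 0.22, 0.08 and -0.03 in other genes.

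**Figure D4:**
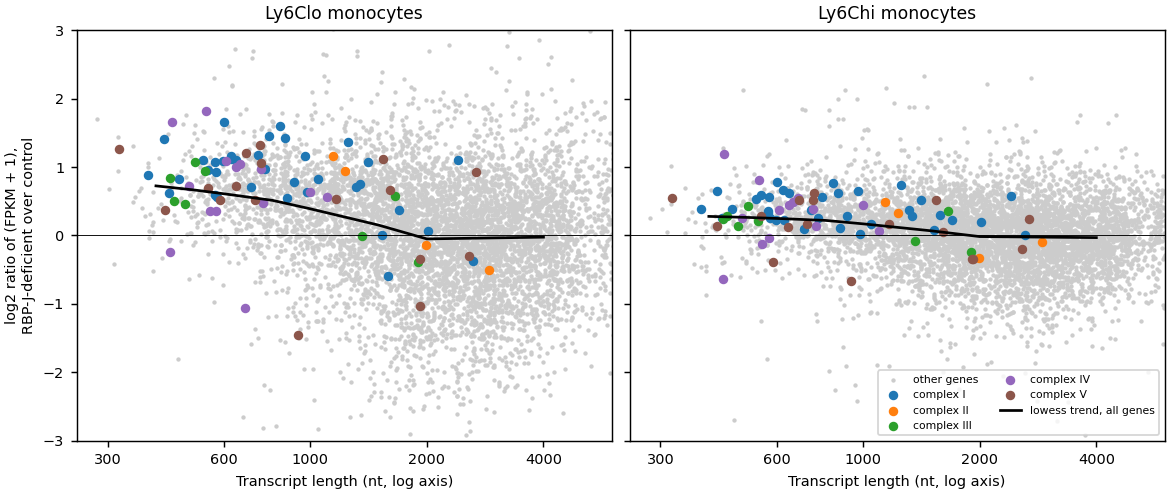
Log2 genotype ratio (deficient over control, FPKM + 1) against transcript length (nt, log axis) in Ly6Clo (left) and Ly6Chi (right) monocytes, with subunit genes coloured by complex, other genes whose FPKM averaged 5 or more in grey and the lowess trend of all genes as a line. Most subunit genes lie at the short end; the trend is 0.51 at 800 nt and -0.05 at 2000 nt in Ly6Clo monocytes, and points beyond the axes are not shown.

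After the length trend was subtracted, the median of the members was 0.31 in Ly6Clo and 0.11 in Ly6Chi monocytes, with 55 and 51 of 79 above 0. At least 2-fold higher in Ly6Clo monocytes were then 6 of 79 members. The share of all expressed genes after the subtraction is not given here, and before it that share was 8.97%. The medians of complexes I, II, IV and V in Ly6Clo monocytes were 0.45, 0.29, 0.23 and 0.14, and that of complex III turned to -0.03. In Ly6Chi monocytes complex III was at -0.04 and complex V at -0.00347 after the subtraction. In Ly6Clo monocytes the median of the accessory members of complex I went from 1.08 to 0.47 and that of the core members from 0.55 to 0.08. With TPM, the median of all expressed genes moved to -0.22 in Ly6Clo and -0.08 in Ly6Chi monocytes, while that of the members was 0.48 and 0.18. On that scale 65 and 61 of 79 members were above 0.

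Some markers of other cells and of the other subset moved with the genotype. The 5 erythroid markers found of 6 summed to 1583 FPKM in the control Ly6Clo library and to between 276 and 387 in the other 3. The 7 neutrophil markers found of 8 summed to 238 and 163 in Ly6Clo and 1330 and 1045 in Ly6Chi monocytes, with Camp at 0 in 3 libraries, and the 5 platelet markers to 126 and 124 and to 350 and 293. The 6 B cell markers summed to 68.0 and 102.1 in Ly6Clo monocytes, all 6 found T cell markers were under 1 in every library, and the 6 NK cell and 5 dendritic cell markers summed to at most 7.28 and 14.2. The part of these cells in the subunit gene differences was not tested. Markers of Ly6Chi monocytes were higher in the deficient than in the control Ly6Clo library, 669 against 120. Most of that difference in FPKM came from Ccr2, at 59.2 and 473.7. The paper also reports high CCR2 in deficient Ly6Clo monocytes by qPCR and flow cytometry. Other markers of the list rose too, such as Ly6c2, at 10.9 and 78.3, and F13a1, at 0.61 and 10.7. Cd177 alone went the other way, at 7.07 and 6.04. In FPKM, 57 members were higher in the deficient Ly6Clo library, which had the highest summed FPKM, than in both Ly6Chi libraries. With TPM, 38 of 79 members were higher in the deficient Ly6Chi than in the deficient Ly6Clo library. The part of Ly6Chi cells in these levels was not tested.

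Other genes of the mitochondrion were counted from lists in the same comparison. Further subunits outside the symbol rule had a median log2 ratio of 0.66 in Ly6Clo and 0.26 in Ly6Chi monocytes over 5 genes, with Atpif1, the inhibitor of the ATP synthase, at 1.49 and 0.26. Cytochrome c1 (Cyc1), the remaining redox subunit of complex III that is encoded in the nucleus, was at 91.2 and 71.3 FPKM in Ly6Clo monocytes. Of 42 expressed assembly factors, 6 (14.3%) were at least 2-fold higher and none lower in Ly6Clo monocytes, against 8.97% and 11.1% of all expressed genes, with a median of 0.44, and the copper chaperone Cox17 was at 435 and 904 FPKM. The 77 proteins of the mitochondrial ribosome had a median of 0.52, with 13 (16.9%) at least 2-fold higher and none lower. The 16 genes of electron carriers and ubiquinone synthesis had a median of 0.14, with 2 (12.5%) in each direction at 2-fold, near the share of all expressed genes, and cytochrome c (Cycs) was at 80.3 and 181.0.

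The enzymes upstream of the chain were mixed in direction. Of 17 genes of the citric acid cycle and pyruvate dehydrogenase, 10 were above 0 in Ly6Clo monocytes, with a median of 0.23, which turned to -0.07 with TPM, as that of the electron carriers turned to -0.12. At 2-fold, 1 of the 17 (5.88%) was higher, against 8.97% of all expressed genes, namely Sucla2 at 1.47, and 3 (17.6%) were lower, against 11.1%, among them Ogdh at -1.29 and Cs, which makes citrate, at -1.05. The 11 expressed regulators of mitochondrial biogenesis had a median of -0.38 in Ly6Clo and 0.34 in Ly6Chi monocytes. At 2-fold in Ly6Clo monocytes none was higher and 2 (18.2%) were lower, against 8.97% and 11.1% of all expressed genes. These 2 were Tfb1m at -1.64 and Polrmt at -1.34. Of 9 genes for outer membrane channels and protein import, 7 were above 0, with a median of 0.47, and Tomm40 was at -1.91. The genes of these lists named here were chosen after their values were seen.

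Large complexes outside the mitochondrion served as a comparison. The 75 cytosolic ribosomal proteins, short and abundant like the subunit genes, had a median of 0.37 in Ly6Clo and 0.15 in Ly6Chi monocytes. In Ly6Clo monocytes 1 of the 75 (1.33%) was at least 2-fold higher, against 8.97% of all expressed genes. After subtraction of the length trend the median of the ribosomal proteins was -0.15 in Ly6Clo monocytes. The 39 proteasome subunits had medians of 0.64 and 0.20, and 0.41 in Ly6Clo monocytes after the subtraction, above the 0.31 of the respiratory chain genes. Whether the respiratory chain genes differ from these lists beyond the spread between mice could not be tested with 1 library per group.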

How the data were processed

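RNA-seq of sorted blood monocytes was analysed from a table with 1 library for each of 4 groups. The authors deposited FPKM values in 6 pairs of libraries with Cuffdiff-type columns, made from Illumina HiSeq2500 read pairs. The submitters' processing notes name CASAVA 1.8, TopHat2 2.1.0, Cufflinks 2.2.1 and the mm10 build, without their parameters. The strand setting and the treatment of reads that match several copies are not given in the sources used here. The authors' fold changes, test statistics, p-values and q-values in the same table were not used. A gene's FPKM did not differ between pairs for any member.

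FPKM of rows that share a symbol were summed, and the log2 ratio of (FPKM + 1) was computed, after the (FPKM + 1) folds of the study's methods. Because FPKM are not counts and depth is unknown, no count test, interval or p-value was made. A fold on this scale understates the difference of low genes. Genes that reached an FPKM of 1 in any library were kept, and a 2-fold ratio was counted.

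Transcript length and GC content were the median over the basic coding transcripts of a gene in GENCODE M21 (GRCm38), found for 98.8% of expressed genes and all 84 members. Lowess trends (fraction 0.3, 3 iterations) used the 6330 genes whose FPKM averaged 5 or more. Gene coordinates are 1-based GENCODE positions, and promoters are RefSeq GRCm38.p6. Trends used statsmodels 0.14.6, tables pandas 2.3.3 and numpy 2.4.6, and plots matplotlib 3.10.9, in Python 3.11.15, and the procedure was tested on simulated data.

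The members, the gene lists and the rules were chosen with earlier results of these data known. Genes named were, among members at an FPKM of at least 5 in a compared library, the 3 highest and 3 lowest ratios of each comparison; the 2 most abundant members of each complex; all Sdh genes; the complex I core; and alternative forms of a subunit. Some genes that these rules take are not reported here. Others are named as chosen after their values were seen.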

Additional observations from a re-analysis of the deposited data

Results flagged for a closer look

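The genotype difference had opposite signs in the subsets for the following genes, each from 1 library per group, so the difference between subsets was not tested. The log2 genotype ratio was -0.37 in Ly6Clo and 0.0142 in Ly6Chi monocytes for Ndufs1. It was 0.52 and -0.39 for Atp5g2, 0.36 and -0.0409 for Cox6a1, and 0.36 and -0.12 for Cox8a. The values of Ndufs1 and Cox6a1 in Ly6Chi monocytes were close to 0.

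On the FPKM scale the subset difference had opposite signs in the genotypes, also untested. The median log2 ratio of Ly6Chi over Ly6Clo over all expressed subunit genes was 0.19 in control monocytes and -0.28 without RBP-J. It was 0.17 and -0.32 in complex I, 0.16 and -0.12 in complex III, 0.22 and -0.23 in complex IV, and 0.33 and -0.0877 in complex V. With TPM the medians in deficient monocytes were -0.07 over all members, -0.11 in complex I and -0.02 in complex IV. Those of complexes III and V became positive, 0.09 and 0.13, so their signs were no longer opposite. These comparisons use the same 4 libraries as the genotype ratios.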

How the results depend on the processing

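Of 414 values under alternatives, 335 moved little. No median over all members and no ratio at 2-fold changed its direction. The 414 include counts of members and shares of library FPKM, which have no direction to reverse. Settings that only change which genes are kept cannot move the ratio of a single gene, and such values are among the 335. A pseudocount cannot change the sign of such a ratio. For a single gene only rescaling, centring or a trend could do so. The single genes followed had the highest or lowest ratios of a comparison, so a reversal was least likely for them. Medians of single complexes were not among the 414, and some changed sign with TPM or after the length trend. Leaving out a replicate was not possible with 1 library per group, and no paired analysis was possible because each group held 1 library. In Ly6Clo monocytes the median of the members was 0.48 with TPM, 0.31 after the length trend, 0.42 after the length and then the GC trend and 0.39 with the longest transcript as length; members at least 2-fold higher were then 9, 6, 11 and 12. With a fold of 1.5 there were 51 higher, with the folds of the study's methods 0 in each direction, and 2-fold lower were 1 with a pseudocount of 5 and 0 after the GC trend. In Ly6Chi monocytes the same 4 medians were 0.185, 0.11, 0.16 and 0.17. Members 2-fold higher there were 2 with a pseudocount of 0.1 or after the GC trend, and 0 with a pseudocount of 5, a mean FPKM of at least 10, the study's folds or either length trend, while a fold of 1.5 gave 12 higher and 2 lower. Between the control subsets the median was 0.0905 after the length and then the GC trend; a fold of 1.5 gave 5 higher, and a mean FPKM of at least 10 or the study's folds gave 0 in both directions, as did a pseudocount of 5 for lower members. Between the deficient subsets the median was -0.0686 with TPM, -0.0607 after the length trend, -0.12 after the length and then the GC trend and -0.13 with the longest transcript. Higher there were 1 with a pseudocount of 5, after the GC trend or after both trends, and 0 with the study's folds. Lower were 1 with a pseudocount of 0.1 or after both trends, 4 after the GC trend and 20 with a fold of 1.5. The share of library FPKM held by the members was 4.32% and 6.16% in control and deficient Ly6Clo monocytes and 4.78% and 5.56% in Ly6Chi monocytes without the 20 highest rows. The cause of these shifts was not tested, beyond the smaller or larger fold where that was the setting. The counts of members under alternatives have no share of all expressed genes under the same setting beside them, so they show no excess over other genes. The trends combined and the longest transcript were chosen after seeing the data. Unknown depth leaves the precision of low members, such as Cox6a2, without a measure.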
